A study of Mus musculus with 12 samples.

Results

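The cytosolic ribosomal protein genes were examined in tissues of Sirt6 knockout mice. They were taken as all genes whose platform symbol began with Rpl or Rps followed by a digit or the letter a, without the Rps6k kinase genes, of which 5 were left out. This gave 71 genes of 14654 named genes on the array, read by 116 probes. Of these, 27 carried an Rps name (small subunit) and 44 an Rpl name (large subunit). The set held 64 core ribosomal proteins (25 small, 39 large), the 6 paralogues Rpl3l, Rpl7l1, Rpl22l1, Rpl36al, Rpl39l and Rps27l, and Rps19bp1, which encodes a protein that binds Rps19 and is not itself part of the ribosome. The genes lay on 19 chromosomes, and 4 of them (Rpl10, Rpl36a, Rpl39 and Rps4x) were on the X chromosome.

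Each of 12 arrays compared RNA of a Sirt6-/- tissue, labelled with Cy5, with RNA of the same tissue from wild type mice of the same age, labelled with Cy3. The 6 groups had 2 arrays each, from mice of 21 days (liver, spleen) and of 29 days (liver, spleen, skin, thymus). At 21 days 3 wild type littermates were pooled, and the labels do not give the make-up of the 29-day wild type RNA. No treatment, strain or sex is given in the labels. Each value is read as the log2 of the knockout signal over that of wild type, with the array's median set to 0, so a value above 0 means more of that RNA in the knockout relative to the array as a whole. The labels give the dye of each RNA but not which dye was divided by which, so this direction (Cy5 over Cy3) is likely and was not settled, and every higher and lower rests on it. Dyes were not swapped, and dye preference of a probe and genotype cannot be told apart. A ratio carries no level, so the tissue named in the labels could not be checked against its markers.

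Cytosolic ribosomal proteins are built together with ribosomal RNA into the small and large subunits that translate messenger RNA. Their genes are transcribed in a coordinated way, with Myc among the activators, and their messages start with a run of pyrimidines (the 5′ terminal oligopyrimidine tract) through which mTOR signalling and Larp1 control their translation. Sirt6 is a chromatin-bound deacetylase that has been reported, in mouse cells, to limit Myc-driven transcription of ribosomal protein genes. Their messages are among the most abundant in most cells, which makes them sensitive to any dependence of an array on signal strength.

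To show what the transcript starts of these genes look like, 30 bases around the annotated start are printed for 6 members. Rps27 and Rps9 followed the group, Rpl13a is the member with the most probes, and Rps15a, Rpsa and Rps4x did not follow the group (described further on). The sequences are RefSeq's on GRCm38.p6 and run from 15 bases before the start, 5′ to 3′ on the transcribed strand. Capitals mark a run of at least 8 C or T bases, counted from a C, that begins within 10 bases of the start. Rps27 lies at chr3:90213634-90213663 on the minus strand, Rps9 at chr7:3704026-3704055 on the plus strand and Rpl13a at chr7:45128731-45128760 on the minus strand. Rps15a lies at chr7:118116133-118116162 on the minus strand, Rpsa at chr9:120127751-120127780 on the plus strand and Rps4x at chrX:102189377-102189406 on the minus strand.
Rps27: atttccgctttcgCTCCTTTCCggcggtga
Rps9: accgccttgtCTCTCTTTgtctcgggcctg
Rpl13a: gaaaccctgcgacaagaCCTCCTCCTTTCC
Rps15a: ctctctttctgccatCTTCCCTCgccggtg
Rpsa: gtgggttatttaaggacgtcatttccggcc
Rps4x: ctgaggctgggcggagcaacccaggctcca
RefSeq's promoter table held 59 of the 71 members, with 70 starts. A C followed by at least 4 C or T bases stood exactly at an annotated start of 12 members (20.3%), against 813 of 27025 genes in the table (3.0%). A run of at least 8 C or T bases, counted from a C that lies within 10 bases of a start, was found in 20 members (33.9%), against 2457 of all genes (9.1%). The search was made on the transcribed strand alone, and an annotated start can lie some bases away from the one in use. Rps15a, which did not follow the group, had both features, and Rps9, which with Rps16 followed it most closely, had the run but not the C at its annotated start.

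The arrays differed in quality. The 29-day arrays lacked 339 to 484 of 38784 values and the 21-day arrays 661 to 10155, most of them on 21-day spleen replicate 6. That array and 29-day spleen replicate 2 had the widest spread of all ratios in their age sets (SD 1.14 and 0.66). All 71 members had values on every 29-day array, and 53 had values on all 12 arrays. The 29-day spleen arrays went against each other over all features (Pearson r = -0.25, 30789 features). The mean log2 ratio of Sirt6 itself ranged from -1.18 in 21-day spleen to 0.17 in 29-day spleen and passed the limma test in no group (lowest adjusted p = 0.103). Whether its probes lie in the deleted part was not tested, so this checks neither the genotype nor the direction of the ratios.

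The ribosomal protein genes shifted together from array to array, and no member passed the limma test in any comparison. Their median log2 ratio was 0.86 and 0.37 on the 29-day skin arrays (replicates 1 and 2), which made skin the tissue with the highest values. It was 0.34 on replicate 1 of 29-day spleen and -0.93 on replicate 2, so the arrays of that tissue lay on opposite sides of 0. It was 0.42 and 0.03 on the 21-day liver arrays (replicates 2 and 11), and -0.71 and -0.02 on the 21-day spleen arrays (replicates 6 and 11). The 29-day liver arrays had 0.22 and -0.07, and the 29-day thymus arrays -0.19 and 0.13. Only skin and 21-day liver had both medians above 0, and only 21-day spleen had both below 0. In whole tissue, fewer cells of a type and less RNA per cell cannot be told apart.

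**Figure D1:**
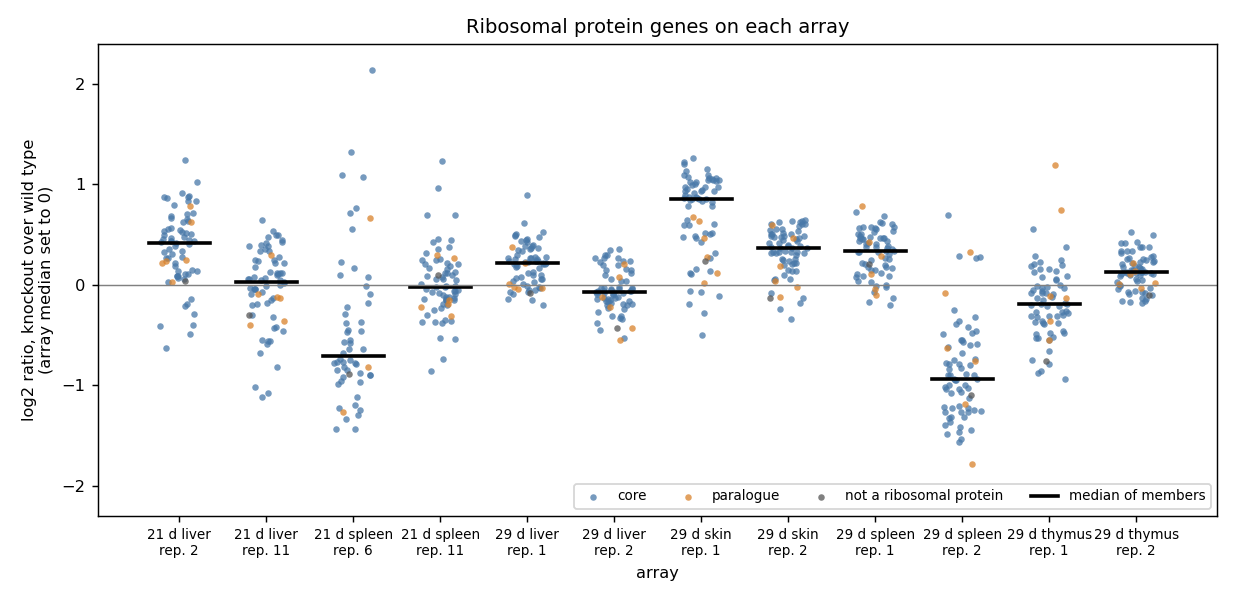
Log2 ratio of knockout over wild type (y axis, array median set to 0) of each ribosomal protein gene on each of the 12 arrays (x axis), with core members, paralogues and Rps19bp1 in different colours and a black line at the median of the members. The medians run from -0.93 on 29-day spleen replicate 2 to 0.86 on 29-day skin replicate 1.

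Members named for the small and the large subunit did not separate. On 29-day skin replicate 1 the 25 core small-subunit genes had a median of 0.87 and the 39 core large-subunit genes one of 0.86. On 29-day spleen replicate 2 the medians were -0.79 and -0.95. Over the 12 arrays the small minus large difference ran from -0.15 to 0.15, so it was smaller than the shift of the whole set on the skin arrays. The 6 paralogues lay closer to 0 than the core genes on both skin arrays, with medians of 0.37 and 0.11.

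In 29-day skin, 60 of 71 ribosomal protein genes were above 0 on both arrays, against 28.2% of all features, and 3 were below 0 on both, against 26.9%. The log2 ratios on the 2 arrays went together over the members (Pearson r = 0.78 over 71 genes, which share their arrays). Replicate 1 was higher than replicate 2 for 62 members, by a median of 0.41, and for 16022 of 30818 features. The group means had a median of 0.62 over the members, against 0.01 over all features. The limma test called 0 of 71 members at an adjusted p of 0.05, where it called 0.0389% of all features. At an unadjusted p under 0.05 it took 19 members higher and 0 lower, where 1.46% of all features were taken higher.

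The skin members of smallest p were Rpl30, Rps28, Rpl39, Rps14 and Rps25. Rpl30, a large-subunit protein, had 0.84 and 0.51 on the skin arrays and a mean of 0.68 (SE 0.19, a fold of 1.60, limma adjusted p = 0.715). Rps28, a small-subunit protein at the messenger RNA exit, had 1.09 and 0.62 and a mean of 0.86 (SE 0.26). Both arrays were above 0 for these genes, and for both the first array was the higher. Rpl39, a small protein that lines the exit tunnel of the large subunit, had 1.27 and 0.47, the highest value of any member on replicate 1. Rps14, whose loss underlies the anaemia of the 5q- syndrome in humans, had 1.05 and 0.64, the highest on replicate 2. Rps25, a small-subunit protein used by some viral internal ribosome entry sites, had 1.16 and 0.63 and the highest mean of all members in skin (0.90, SE 0.30). Rps27, whose start is printed above, had 1.22 and 0.52. The paralogues Rpl22l1 (0.68 and 0.19) and Rps27l (0.64 and 0.04) were above 0 on both arrays as well. So were Rpl39l (0.28 and 0.47), the paralogue of Rpl39 expressed mainly in testis, and Rpl3l (0.12 and 0.59), the striated muscle paralogue of Rpl3.

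The members below 0 on both skin arrays were Rpl3, which helps to form the peptidyl transferase centre, with -0.50 and -0.34, Rps19 with -0.29 and -0.24, and Rpl31 with -0.11 and -0.18. Rpl31 lies at the exit of the nascent chain tunnel, and Rps19 is the gene most often mutated in Diamond-Blackfan anaemia in humans. Rpl7l1 had 0.02 and -0.12, Rpl36al 0.47 and -0.02 and Rps19bp1 0.24 and -0.13, each with its arrays on both sides of 0. The limma call in skin depended on how arrays of unequal spread were treated. With the arrays scaled to one spread, 4 members passed (Rpl30, Rps14, Rps25 and Rps28), where 1.39% of all features passed. With quantile normalization 6 members passed (1.64% of all features) and with array quality weights 12 (1.85%), in each case as higher.

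**Figure D2:**
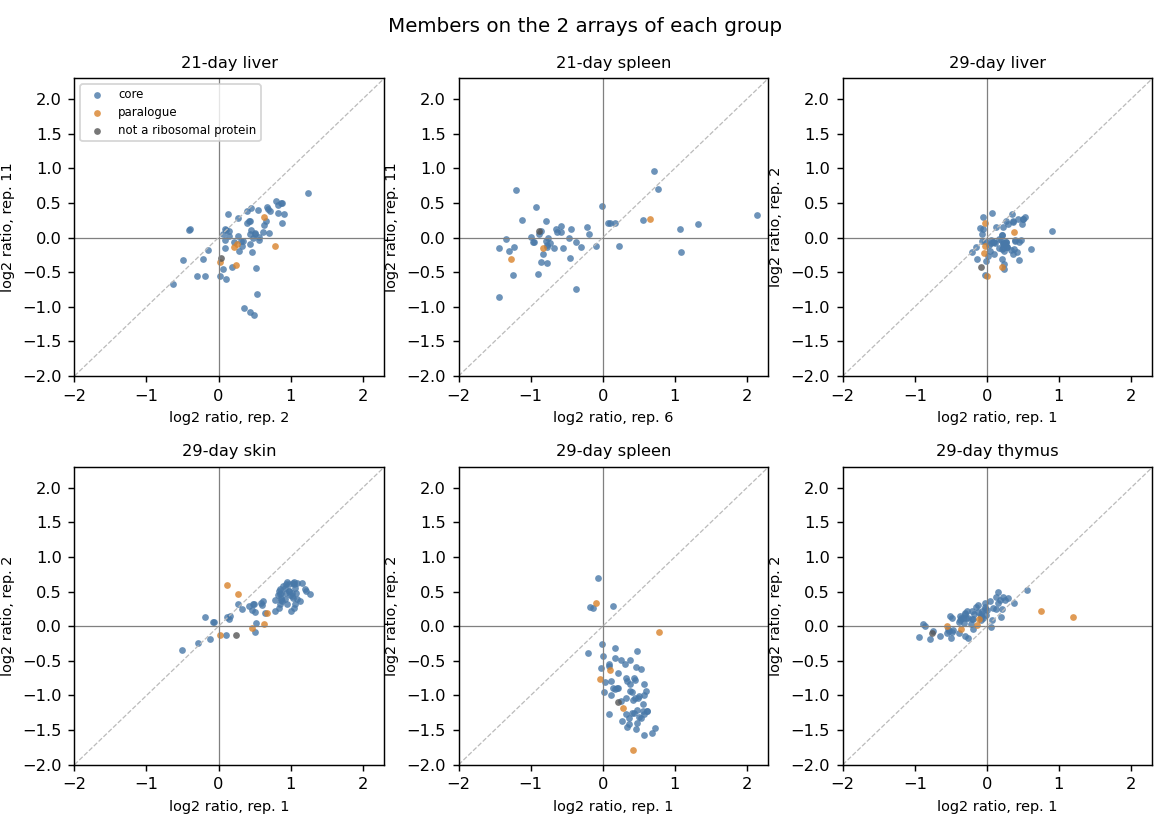
Log2 ratios of the members on the first array of each group (x axis) against the second (y axis), 1 panel for each tissue and age, with the dashed line marking equal values. Skin members lie in the upper right, with 60 of 71 above 0 on both arrays, whereas 66 of 71 members in 29-day spleen are on different sides of 0.

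Skin stood above the other 29-day tissues for many members, but the difference passed no test. Both skin arrays exceeded all 6 other 29-day arrays for 35 of 71 members (49.3%), against 3.89% of all features. The limma comparison of skin with the mean of liver, spleen and thymus gave a median of 0.64 over the members. It called 0 members and 0 of all 30641 features (0%), while 11 members were higher and 0 lower at an unadjusted p under 0.05, where 1.18% of all features were higher. On the skin arrays the skeletal muscle markers (3 genes) had medians of 0.49 and 0.56, the keratinocyte markers (2 genes) 0.18 and 0.23 and the T cell markers (3 genes) -0.69 and -0.37. The T cell markers did not all go one way, with group means of -0.60 for Cd3e and -0.54 for Cd3g but 0.13 for Rag1. The part of all these markers in the ribosomal protein values was not tested.

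In 29-day spleen the arrays gave opposite values. On replicate 1, 63 of 71 members were above 0. On replicate 2, 66 members were below 0 and 57 had a log2 ratio under -0.5. Centring puts as many probes of an array above 0 as below, and the share of all features under -0.5 was not counted. One member was above 0 on both arrays, which was Rpsa, against 19.1% of all features, and 4 were below on both, against 17.7%. Over the members the arrays had a Pearson r of -0.58, so a gene that was high on replicate 1 tended to be low on replicate 2.

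The members' group median in 29-day spleen was -0.30, between 0.34 and -0.93 on its arrays. Limma called 0 of 71 members, as it called 0 of 30783 features (0%), and at an unadjusted p under 0.05 it took 0 members, where 3.3% of all features were taken. Rpl4, which reaches into the exit tunnel of the large subunit, had 0.09 and -1.26, the smallest p in this tissue (mean -0.59, SE 0.31, limma adjusted p = 1). Rpl11, a 5S ribonucleoprotein member that binds Mdm2, had 0.27 and -1.37. Rps27l, the paralogue of Rps27 and a p53 target in human cells, had 0.42 and -1.79, the lowest value of any member on any array. Rpl7 had 0.33 and -1.45, and Rpl13a 0.02 and -0.95. Rpl30 (-0.02 and -0.60) and Rpl22l1 (-0.04 and -0.76) were below 0 on both arrays, and Rpl39l had the highest mean (0.35), with 0.79 and -0.09. Without replicate 2 the sign of Rpl4 (0.09), Rpl11 (0.27) and Rpl13a (0.02) turned. On replicate 2 the hepatocyte markers (4 genes, median -1.97), erythroid markers (2 genes, -1.76) and proliferation markers (2 genes, -2.02) were low and the exocrine pancreas markers (2 genes, 1.23) were high. Their part in the ribosomal protein values was not tested.

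The members above 0 on that array were Rpl3 (0.28), Rpl3l (0.33), Rps15a (0.27), Rps4x (0.70) and Rpsa (0.29). Rps4x is the X-linked member of the Rps4 family, Rpsa has also been described as a laminin receptor, and Rps15a is a core small-subunit protein. The same 5 genes had a negative correlation with the median of the other members over the 8 arrays at 29 days. Spleen replicate 2 is among these arrays and has the lowest median of the members, so the correlation is not a separate observation. The Pearson r, given as a description over arrays that share a platform and their processing, was -0.83 for Rpl3, -0.81 for Rps4x, -0.75 for Rpsa, -0.54 for Rps15a and -0.31 for Rpl3l. The median r over the 71 members was 0.97 and 56 of them exceeded 0.9, with the highest value (0.99) for Rps9 and Rps16. Between the extremes were Rps19 (0.33), Rpl39l (0.42) and Rpl31 (0.49). Of the 5 genes of negative r, Rpl3, Rps4x, Rps15a and Rpl3l were read by 1 probe each and Rpsa by 2. Single probes of other members were also above 0 on 29-day spleen replicate 2. These were 2 of 23 probes of Rpl13a (up to 0.36) and 2 of 3 probes of Rpl37 (up to 0.46), among others. Whether the pattern lay with the genes or with their probes was not tested.

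**Figure D3:**
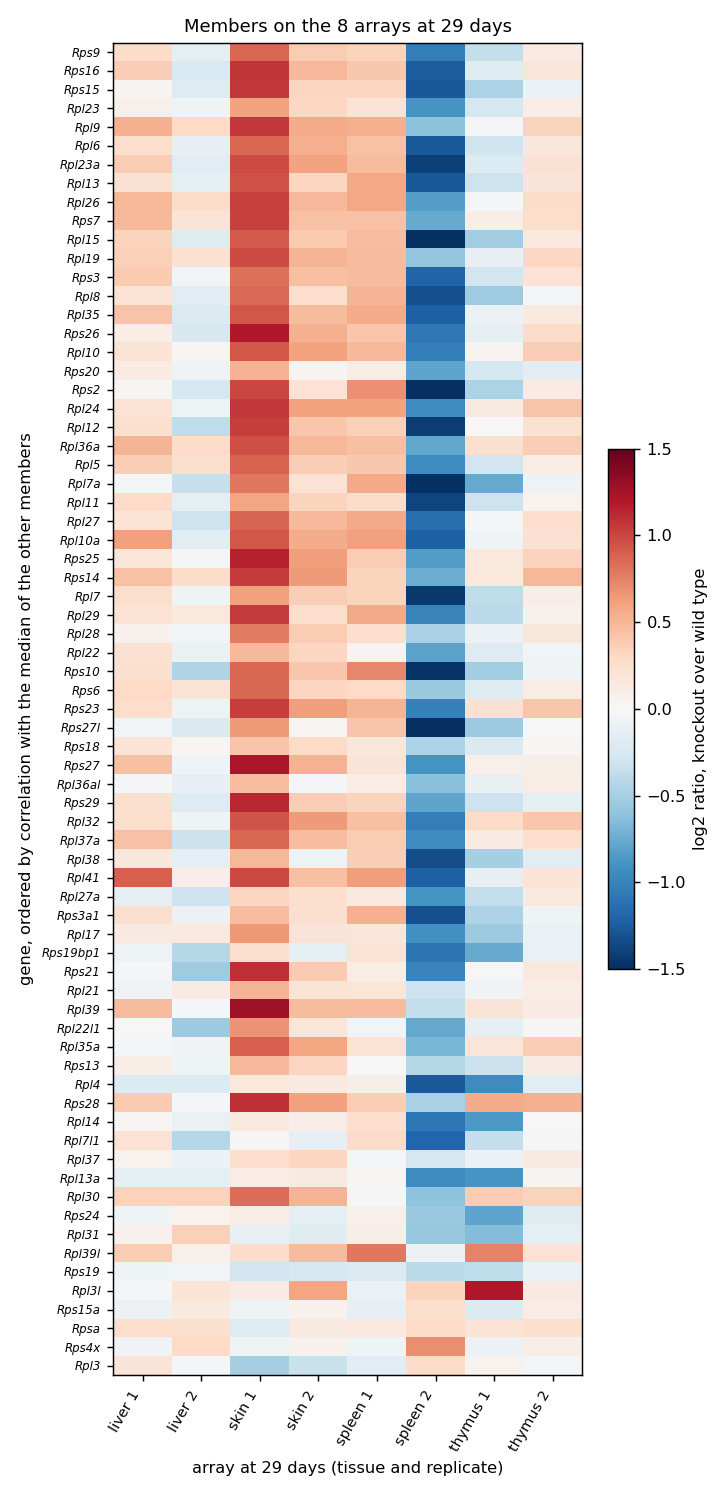
Log2 ratio of knockout over wild type (colour scale, with values past 1.5 either way drawn in the end colours) of the 71 members (rows, ordered by their correlation with the median of the other members) on the 8 arrays at 29 days (columns). Most rows are red in both skin columns and blue in the column of spleen replicate 2, and the 5 rows at the bottom, from Rpl3l to Rpl3, are red there.

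Rps19, taken as the mean of its 2 probes, was below 0 on all 12 arrays, the one member for which this held. The share of all features below 0 on all 12 arrays was not counted. Neither probe alone was below 0 on every array. Their highest values were 0.17 (21-day liver replicate 11) and 0.04 (29-day liver replicate 1), and on 21-day spleen replicate 6 they had -2.62 and -0.26. The log2 ratios of Rps19 were -0.29 and -0.55 in 21-day liver, -1.44 and -0.15 in 21-day spleen and -0.07 and -0.05 in 29-day liver. They were -0.29 and -0.24 in skin, -0.20 and -0.39 in 29-day spleen and -0.39 and -0.10 in thymus. In the limma test of the mean of all 6 groups it had -0.35 (SE 0.11, adjusted p = 0.126). Rps28 (0.31, SE 0.11), Rpl39l (0.37, SE 0.11), Rps23 (0.35, SE 0.12), a protein of the decoding centre, and Rpl21 (0.25, SE 0.10) had the smallest p among the higher members. In that comparison 53 members had values in all groups, limma called 0 of them (1.67% of all features), and 6 were higher and 1 lower at an unadjusted p under 0.05, where 20.1% of all features passed in either direction. Their median was -0.01. Scaling to one spread called Rps28 as higher (3.83% of all features), and quantile normalization called Rps14, Rps23 and Rps28 as higher and Rps19 as lower (5.95%). Without replicate 11 of 21-day spleen, 4 were called, with Rpl21, Rpl39l and Rpsa higher and Rps19 lower (17.5% of all features). Without replicate 1 of 29-day spleen Rpl4 and Rpl38 were called lower (9.64%), and without its replicate 2 Rps23 was called higher (0.728%). Without the 2 arrays of widest spread 5 were called higher (5.96%), which were Rpl10, Rpl32, Rps7, Rps23 and Rps28.

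The mean of the 4 tissues at 29 days was near 0, with a median of 0.08 over the members. Limma called 0 of 71 members (0.049% of all features), and 8 were higher and 0 lower at an unadjusted p under 0.05, where 3.01% of all features were higher. Rps28 had the smallest p (0.38, SE 0.13, adjusted p = 0.537), followed by Rpl30 (0.27, SE 0.10), Rpl39l (0.36), Rpl39 (0.33) and Rpl9 (0.33). Rps28 was above 0 on 6 of 8 arrays, with -0.03 on 29-day liver replicate 2 and -0.49 on spleen replicate 2. With the arrays scaled to one spread Rpl30 and Rps28 passed as higher (1.72% of all features), and with quantile normalization Rpl30, Rps14 and Rps28 (3.08%).

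In 29-day liver the members stayed close to 0. Above 0 on both arrays were 17 members, against 23.9% of all features, and 10 were below on both, against 22.9%. Replicate 1 was higher than replicate 2 for 61 of 71 members, by a median of 0.28, and for 15789 of 30821 features. The members' group median was 0.07. Limma called 0 members (0.104% of all features), and 0 had an unadjusted p under 0.05, where 2.16% of all features did. Rpl41, a very short basic large-subunit protein, had the highest mean (0.50, SE 0.39) with 0.90 and 0.10 on its arrays. Rpl30 had 0.35 on both arrays, Rpl9 had 0.53 and 0.30, Rpl36a 0.50 and 0.27 and Rps14 0.44 and 0.27. The lowest means were those of Rps21 (-0.03 and -0.54), Rpl22l1 (0.01 and -0.55) and Rps19bp1 (-0.08 and -0.43), each set by replicate 2.

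In 29-day thymus the arrays also differed, with replicate 1 lower than replicate 2 for 65 of 71 members, by a median of 0.33 in size. Replicate 1 was the lower for 17134 of 30820 features. Above 0 on both arrays were 17 members and below on both 17, against 38.5% and 33.7% of all features. The group median was -0.03. Limma called 0 of 71 members (0.013% of all features), and 1 was higher and 0 lower at an unadjusted p under 0.05, where 5.21% of all features passed. That one was Rpl3l, with 1.20 and 0.14 and a mean of 0.67 (SE 0.27, limma adjusted p = 0.908). The markers of cardiac muscle (3 genes) had medians of -1.60 and -2.03 on these arrays, and skeletal muscle markers (3 genes) -0.14 and -0.24, and their part in the value of Rpl3l was not tested. Rps28 had 0.56 and 0.53, Rpl30 0.38 and 0.34 and Rpl39l 0.75 and 0.22, each above 0 on both arrays. Rpl4 (-0.94 and -0.16) and Rps24 (-0.79 and -0.18), a small-subunit protein also mutated in Diamond-Blackfan anaemia in humans, were below 0 on both. Rpl14 had -0.86 and -0.001, so replicate 1 alone set its mean.

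In 21-day liver the members were mostly above 0. Above 0 on both arrays were 35 of 69 members with both values, against 31.9% of all features, and 6 were below on both, against 33.6%. The group median was 0.14, against -0.04 over all features. Limma called 0 of 69 members (2.54% of all features), and 4 were higher and 2 lower at an unadjusted p under 0.05, where 8.32% and 11.7% of all features were. Rps14 was the highest member on both arrays, with 1.25 and 0.64 and a mean of 0.94 (SE 0.28, adjusted p = 0.108 in limma). Rps6, the substrate of the S6 kinases, had 0.87 and 0.49, Rps7 0.88 and 0.50 and Rpl39 0.80 and 0.53. Rps24 was the lowest, with -0.63 and -0.68 (mean -0.65, SE 0.22), followed by Rps19 and Rpl37 (-0.49 and -0.32), a zinc-binding large-subunit protein. The 2 probes of Rps24 had -1.04 and -0.22 on replicate 2, and only the lower of them had a value on replicate 11. The 3 probes of Rpl37 ran from -1.595 to 0.29 on replicate 2. Among the paralogues, Rpl39l had 0.79 and -0.12 and Rpl3l 0.63 and 0.30. Without centring limma called Rps24 as lower (4.39% of all features), and without the 2 arrays of widest spread it called Rps6, Rps7 and Rps14 as higher and Rps24 as lower (12.3%).

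In 21-day spleen the members were mostly below 0, most of all on replicate 6. Above 0 on both arrays were 10 of 55 members with both values, against 25.3% of all features, and 27 were below on both, against 29.1%. The group median was -0.35, against -0.03 over all features. Limma called 0 of 55 members (4.13% of all features). At an unadjusted p under 0.05, 4 were higher and 4 lower, where 11.3% of all features were higher and 16% lower. Rps14 was the lowest member on both arrays, with -1.44 and -0.86 and a mean of -1.15 (SE 0.28, limma adjusted p = 0.0513). Rps18, a small-subunit protein of the head region, had -0.90 and -0.53 (mean -0.71, SE 0.20, limma adjusted p = 0.0695). Rpl7, a large-subunit protein, had -1.25 and -0.54, and Rps19 -1.44 and -0.15. Rps23 (0.72 and 0.97), Rpl21 (1.33 and 0.19) and Rpl8 (2.14 and 0.32) went the other way, and the value of Rpl8 on replicate 6 was the highest of any member on any array. On replicate 6 Rpl21 and Rps18 each rested on 1 probe, as their other probes had no value there. On replicate 11 the 3 probes of Rpl21 ran from -0.38 to 0.57.

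The calls in 21-day spleen changed with several choices. Without its replicate 11, 8 members were called (26.8% of all features), from 1 array whose spread was taken from the other groups. Of these, Rpl3, Rpl8, Rpl21 and Rpsa were higher and Rpl30, Rps14, Rps18 and Rps19 lower. Without replicate 1 of 29-day spleen Rps23 was called higher and Rps14 and Rps18 lower (7.51% of all features), and without its replicate 2 the same 3 were called (7.49%). Without centring Rps14 was called lower (3.84%), with each probe on its own Rpl21 higher (4.1%), and without the 2 arrays of widest spread Rps23 higher (8.61%). At an adjusted p of 0.1 the called members were Rps14 and Rps18 (13.1%). Neither 29-day spleen array enters the mean of 21-day spleen. Leaving out either one takes the disagreement of that pair out of the spread that all groups share, so these fits are not separate checks. Hepatocyte markers (4 genes, of which Ttr did not have a value on both arrays) had medians of -2.11 and -0.95 on the 21-day spleen arrays. They did not all go one way, with group means of -1.94 for Alb and -1.55 for Apoa1 but 0.34 for Serpina1a. Proliferation markers (2 genes) had medians of -1.69 and -0.93. The part of these markers in the ribosomal protein values was not tested.

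Rps14 was therefore the highest member in one 21-day tissue and the lowest in the other. A limma comparison of the tissues at 21 days, added after these values were seen, put Rps14 2.09 higher in liver than in spleen (SE 0.39, adjusted p = 0.0798). It called 0 of 53 members (0.163% of all features), and 4 had an unadjusted p under 0.05, where 15.9% of all features did. Rps18 differed by 1.02 (SE 0.28, limma adjusted p = 0.158), and Rps24 went the other way, by -0.88 (SE 0.31). Without replicate 11 of 21-day spleen 6 members were called (18% of all features). Rps14 alone was called without replicate 11 of 21-day liver (2.45%), without either 29-day spleen array (0.576% each), without the 2 arrays of widest spread (4.88%) and at an adjusted p of 0.1 (0.999%). The 29-day spleen arrays enter neither mean of this comparison, and leaving out either one changes the spread that all groups share in the same way. At 29 days Rps14 had 0.44 and 0.27 in liver and 0.33 and -0.74 in spleen.

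Between the ages, limma called 0 of 69 members in liver (0.0138% of all features), with 0 at an unadjusted p under 0.05, where 8.22% of all features passed. In spleen it called 0 of 55 (0.0866%). At an unadjusted p under 0.05, 1 was higher and 4 lower at 29 days, where 5.67% of all features were higher and 5.41% lower. Without replicate 11 of 21-day spleen 3 were called in spleen, which were Rpl8, Rpl21 and Rps19 (10.9%). Age and the set of arrays cannot be told apart. At 29 days 0 of 71 members were called in liver against the other 3 tissues (0.0359%), in spleen against the others (0%) and in thymus against the others (0.00979%). At an unadjusted p under 0.05 these comparisons took 0, 1 and 0 members, against 1.89%, 1.79% and 2.54% of all features.

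The other genes of translation and of energy metabolism shifted with the ribosomal proteins from array to array. The 28 translation factors had medians of 0.39 and 0.25 in skin, 0.41 and -1.00 in 29-day spleen and -0.79 and -0.04 in 21-day spleen. Tpt1, Naca and Btf3 were also in this list. The 73 mitochondrial ribosomal protein genes had 0.20 and -0.06 in skin and 0.15 and -1.22 in 29-day spleen, and the 72 respiratory chain genes had 0.35 and 0.15, and 0.26 and -1.22. Over the 12 arrays the Pearson r between the members' median and that of a list was 0.96 for translation factors and 0.94 for mitochondrial ribosomal proteins. It was 0.95 for respiratory chain genes and 0.96 for 37 proteasome genes, taken by their Psm names. Psmc3ip, which is not a subunit, is among these 37. The r was 0.77 for 34 ribosome biogenesis genes and -0.74 for 1021 sensory receptor genes, which are hardly expressed in these tissues. All these medians share the arrays and their normalization, so the r values are a description. On 29-day spleen replicate 2 the sensory receptors had a median of 0.30 while the members had -0.93. The 17 abundant housekeeping genes followed less closely (Pearson r = 0.81, Spearman rho = 0.63), and their group median in 21-day spleen (13 genes with both values) was 0.02, where that of the members was -0.35. The part of signal strength in these values was not tested.

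**Figure D4:**
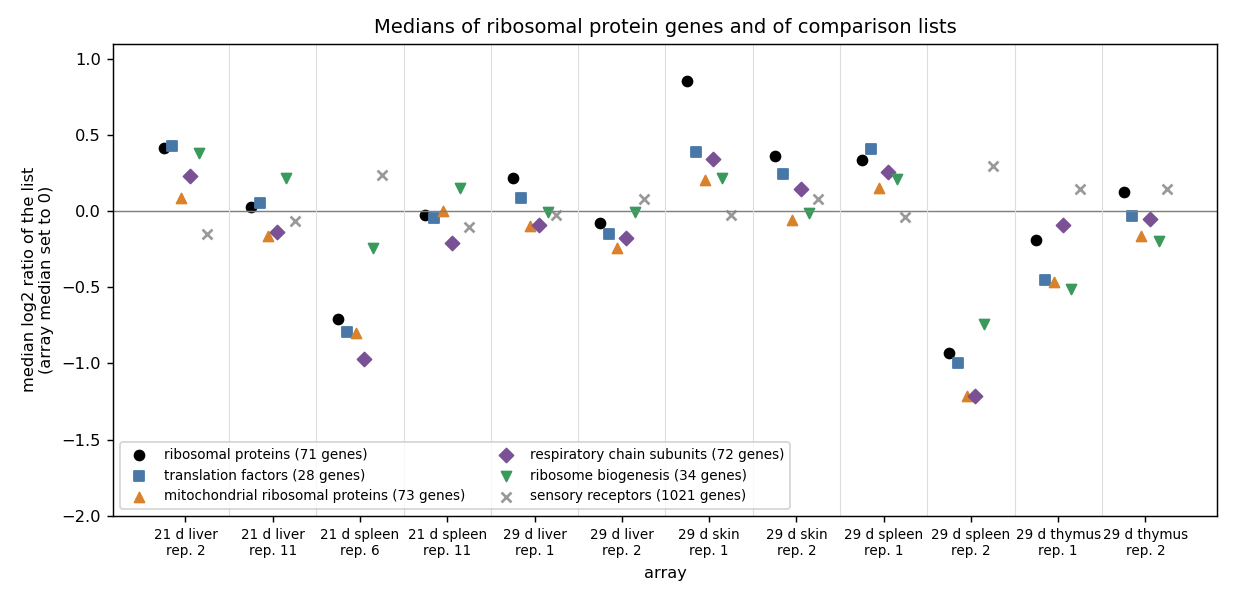
Median log2 ratio of knockout over wild type (y axis) of the ribosomal protein genes (black circles) and of 5 other gene lists (other symbols) on each of the 12 arrays (x axis). The lists of widely expressed genes lie low together on 21-day spleen replicate 6 and 29-day spleen replicate 2, where the sensory receptors are at 0.24 and 0.30, and the ribosomal proteins lie above the other lists on both skin arrays.

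How often the ribosomal proteins were the higher differed by list. Their median exceeded that of the mitochondrial ribosomal proteins and that of the respiratory chain on 11 of 12 arrays each, and that of the proteasome on 12. It exceeded that of the translation factors on 9 arrays, and those of ribosome biogenesis, abundant housekeeping and sensory receptor genes on 7 each. The gap to the respiratory chain was widest on skin replicate 1 (0.51), with 0.22 on skin replicate 2, and it was -0.10 on 29-day thymus replicate 1. The gap to the translation factors was 0.47 and 0.12 in skin and -0.07 on 29-day spleen replicate 1. Centring each array on the respiratory chain genes left the skin median of the members at 0.37, and turned that of 21-day spleen to 0.24 and that of 29-day spleen to 0.18.

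Proteins of the ribosome that the symbol rule leaves out gave mixed values. The stalk proteins Rplp0, Rplp1 and Rplp2 recruit translation factors, and Fau encodes a ubiquitin-like fusion with a small-subunit protein. In skin their mean log2 ratios were -0.02 for Rplp0, 0.83 for Rplp1 (SE 0.36), -0.43 for Rplp2 and 0.75 for Fau (SE 0.38). In 21-day liver Rplp2 was at -1.27 (SE 0.40, limma adjusted p = 0.129), and the other 3 were between -0.07 and 0.26. Limma called none of these 4 genes in the 6 groups, and at an unadjusted p under 0.05 it took Rplp2 as lower in 21-day liver and Rplp1 as higher in skin.

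Among the 28 genes of the translation factor list limma called 0 in the 6 groups. At an unadjusted p under 0.05 it took 1 higher in 21-day liver, 2 lower in 21-day spleen and 1 higher in skin. Of all features, 8.32%, 16% and 1.46% were taken in those directions. The skin gene was Tpt1 (0.68, SE 0.25), and no gene with an Eif or Eef name was taken in skin. Of 34 ribosome biogenesis genes it called Nip7, a large-subunit assembly factor, as lower in 21-day spleen (-1.12, SE 0.22, adjusted p = 0.034), and no other in the 6 groups. Of 12 measured Myc and mTOR pathway genes it called Mxd1, a Max partner that opposes Myc, as lower there (-1.10, SE 0.25, adjusted p = 0.0459), and no other. Each was 1 call, among 27 and 11 genes of these lists tested there, in a comparison that called 4.13% of all features. Myc itself had a mean of -0.89 in 21-day spleen (SE 0.31, adjusted p = 0.115) and 0.27 in skin (SE 0.31, adjusted p = 1).

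Where a gene had several probes, they could be set against each other. Of the members, 53 were read by 1 probe and 18 by more, with Rpl13a read by 23. The 23 probes of Rpl13a, a large-subunit protein also known from the GAIT complex of human myeloid cells, spanned a median of 0.45 on a 29-day array and at most 1.67. Their mean was -0.88 on 29-day thymus replicate 1, where the median of the members was -0.19, and 0.12 on skin replicate 1, where it was 0.86. Rpl13a thus lay below the group on both arrays. Over the other members with several probes the median span on a 29-day array went from 0.12 for Rps3, a protein at the messenger RNA entry, to 0.91 for Rpl38, and Rpl37 had the largest single span (1.77). Many ribosomal protein genes have processed pseudogenes, and whether probes also bind their sequence was not tested.

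**Figure D5:**
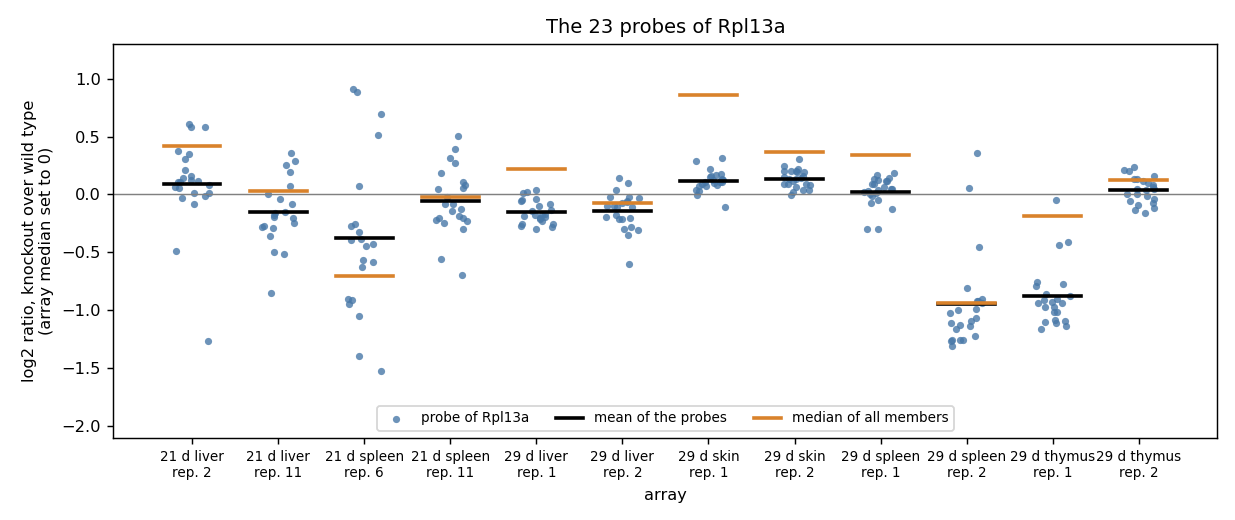
Log2 ratio of knockout over wild type (y axis) of each of the 23 probes of Rpl13a on each of the 12 arrays (x axis), with black lines at their mean and orange lines at the median of all members. On 29-day thymus replicate 1 the probes' mean of -0.88 lies below the members' median of -0.19, and on skin replicate 1 the mean of 0.12 lies below 0.86.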

How the data were processed

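The values were log2 ratios for 38784 probes on 12 arrays, as deposited. Per the labels, channel 2 (Cy5) held knockout and channel 1 (Cy3) wild type RNA, and amplified RNA was labelled. Base 2 was inferred from the values and the direction, Cy5 over Cy3, from the dyes, and background correction and normalization by the authors are not given in the labels or file headers. Signal over background was not in the table, so dim spots were kept and no depth can be given; the number of arrays limits the precision.

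Arrays were centred on their medians. The platform annotation in GEO named 22204 probes with 1 symbol, 0 with several and 16580 with none; gene IDs of all 71 members were in the current gene table. Probes were averaged by gene and unnamed probes kept apart (31234 features).

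Limma 3.58.1 in R 4.3.3 was fitted with a mean for each group on all 12 arrays (lmFit and eBayes, up to 6 residual plus 3.57 prior degrees of freedom) to 30871 features with both arrays of at least 3 groups. P-values are two-sided and were adjusted by Benjamini-Hochberg over all features tested; the threshold was 0.05. Any feature entered a test where each group of it had both arrays. Pooling of wild type littermates keeps their spread out of the 21-day tests, and the labels do not say whether it enters those at 29 days. The series' design text names biological replicates, but no label says which animal each array held, so p-values measure the spread between arrays, which may be technical. The replicate number of one 21-day liver array was given by order of deposit.

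The members, the comparison lists and the tests were chosen with earlier results of these data known. Every member could be named. For each group and mean, the 5 of smallest p and, for each group, the 3 highest and 3 lowest were named by rule; the genes that did not follow the group were named after their values were seen. The steps were tested on simulated data.

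Alternatives were other centring, scaling, quantile normalization, array quality weights, the median over probes, each probe on its own, core members alone, fits within one age, a replicate block, robust eBayes, only features with all 12 values, a log2 change of at least 0.58, a threshold of 0.1 and leaving out each array. Leaving out the 2 arrays of widest spread and the 21-day comparison of tissues were added after seeing the data.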

Additional observations from a re-analysis of the deposited data

Results flagged for a closer look

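The search took in the median of the members and only those members named for their smallest p in a group, a mean or the 21-day comparison of tissues. The following of these values went one way on both arrays of a group and the opposite way on both arrays of another. The share of all features that did so was not counted. At 21 days, liver was above 0 and spleen below on every array for the median of the members (difference of the array means 0.589) and for Rps14 (2.09), Rpl5 (1.34), Rps18 (1.02), Rps27 (0.932), Rps25 (0.819) and Rpl11 (0.805). The added limma comparison of these tissues called none of these 6 genes, with Rps14 nearest (adjusted p = 0.0798). The difference of the medians was not tested. On the replicate 11 arrays the median was close to 0, at 0.029 in liver and -0.024 in spleen, and Rps27 was at -0.007 on that spleen array. Rpl14, Rpl15, Rpl23a, Rpl24 and Rpl37a lay on opposite sides of 0 in the same way but were outside the search.

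At 29 days, Rpl30 was above 0 on both arrays of liver, skin and thymus and below on both of spleen, by 0.654 for liver against spleen, by 0.984 for skin against spleen and by -0.669 for spleen against thymus. Rpl22l1 (0.833) and Rpl37 (0.428) differed in the same way between skin and spleen. Rpl4 was below 0 in liver and thymus and above in skin, by -0.358 for liver against skin and by 0.704 for skin against thymus. Rpl13a was below 0 in liver and above in skin (-0.272). These pairs of 29-day tissues were not tested against each other.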

How the results depend on the processing

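No member was called by the test as first set up in any comparison, and the counts moved from 0 as follows. In 21-day liver 1 member was called without centring and 4 without the 2 arrays of widest spread. In 21-day spleen 1 was called without centring, 1 with each probe on its own, 2 at an adjusted p of 0.1 and 1 without the 2 widest arrays, and leaving out each array in turn gave 0 to 8. In 29-day skin scaling to one spread called 4, quantile normalization 6 and array quality weights 12. For the mean of the 4 tissues scaling called 2 and quantile normalization 3. For the mean of all 6 groups scaling called 1, quantile normalization 4 and leaving out the 2 widest arrays 5, and leaving out each array gave 0 to 4. Leaving out each array gave 0 to 3 for spleen between the ages and 0 to 6 for the 21-day tissues, where an adjusted p of 0.1 and leaving out the 2 widest arrays gave 1 each. Leaving out a 29-day spleen array acted on the tests of the 21-day groups through the shared spread alone. The cause of the other shifts was not tested. The median of the members in 21-day liver was 0.029 to 0.418 with either array alone. In 21-day spleen it was -0.71 to -0.02 with either array alone and 0.24 with centring on the respiratory chain. In 29-day spleen it was -0.93 to 0.34 with either array alone. Without 29-day spleen replicate 2, and without the 2 widest arrays, the means there turned to 0.0905 for Rpl4, 0.0247 for Rpl13a and 0.272 for Rpl11, against -1.26, -0.947 and -1.37 without replicate 1. Centring on sensory receptors moved no array's zero by more than 0.298, and centring on the respiratory chain moved it by up to -1.22.

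The replicate block gave 0 members called in every comparison (block correlation 0.183). The numbers were not shown to pair the arrays: the differences between replicates 1 and 2 correlated between 29-day tissues at -0.209 to 0.413. Groups of 2 arrays and the absence of signal values limit what could be called.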
